A study of Mus musculus with 12 samples.

Results

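The annexins measured here are 9 mouse genes, Anxa1, Anxa2, Anxa3, Anxa4, Anxa5, Anxa6, Anxa7, Anxa8 and Anxa11, read by 20 probes of the 45281 on each array. They are 9 of the 19057 genes that a probe names alone. The family was chosen from earlier results of these same arrays, in which Anxa8 was among the largest decreases at 96 h of imatinib against vehicle. All 20 probes carrying one of the 9 symbols were taken, detected or not. The cells were OP9, a single mouse stromal line from newborn calvaria of the B6C3F1 op/op strain, labelled as mesenchymal stem cells (MSCs). Every group carries the op mutation of Csf1, the gene of a macrophage growth factor. The 4 groups were vehicle, labelled 0 h, and imatinib, which blocks ABL, KIT and PDGF receptor kinases, for 32, 64 and 96 h, with 3 Illumina arrays each. The dose is not given in the sources used here. The study's title concerns resistance to imatinib that stromal cells induce in BCR-ABL-positive lymphoblastic leukaemia.

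Annexins are cytosolic proteins that bind membranes carrying acidic phospholipids, such as phosphatidylserine, when calcium rises. Each has a conserved core of annexin repeats that makes this contact and a variable N-terminal tail that binds partners, among them small calcium-binding S100 proteins. They are known for work in endosome traffic, membrane repair, coagulation and the handling of dying cells. In stromal cells and fibroblasts several members are abundant.

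The start regions of the members that were lower at 96 h, and of Anxa2 beside them, are given as a view of the DNA in front of transcripts with different time courses. Each is 300 bases long, 250 before and 50 after an annotated start, from RefSeq on GRCm38.p6, in lower case 5′ to 3′ on the gene's strand. Capitals mark matches to 4 motifs searched on both strands: the TATA box TATAAA, the CCAAT box CCAAT, the GC box GGGCGG and the AP-1 site TGANTCA, none of which overlap in these windows. The Anxa8 window is chr14:34085729-34086028 on the plus strand. The Anxa5 window is chr3:36475838-36476137 on the minus strand. The upstream one of the pair of Anxa4 windows is chr6:86793535-86793834 on the minus strand. The downstream one of the pair of Anxa7 windows, which overlap, is chr14:20479892-20480191 on the minus strand. The Anxa2 window is chr9:69453433-69453732 on the plus strand.
Anxa8: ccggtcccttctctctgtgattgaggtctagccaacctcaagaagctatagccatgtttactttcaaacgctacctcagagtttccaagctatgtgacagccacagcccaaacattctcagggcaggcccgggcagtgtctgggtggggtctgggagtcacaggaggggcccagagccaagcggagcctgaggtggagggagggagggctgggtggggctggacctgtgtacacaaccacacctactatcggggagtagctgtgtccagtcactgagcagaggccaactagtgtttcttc
Anxa5: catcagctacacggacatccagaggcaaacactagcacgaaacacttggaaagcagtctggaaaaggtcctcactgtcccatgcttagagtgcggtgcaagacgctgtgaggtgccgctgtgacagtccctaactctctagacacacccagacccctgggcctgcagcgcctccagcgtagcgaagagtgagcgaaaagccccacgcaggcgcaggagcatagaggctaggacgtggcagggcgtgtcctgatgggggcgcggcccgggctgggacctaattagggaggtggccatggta
Anxa4: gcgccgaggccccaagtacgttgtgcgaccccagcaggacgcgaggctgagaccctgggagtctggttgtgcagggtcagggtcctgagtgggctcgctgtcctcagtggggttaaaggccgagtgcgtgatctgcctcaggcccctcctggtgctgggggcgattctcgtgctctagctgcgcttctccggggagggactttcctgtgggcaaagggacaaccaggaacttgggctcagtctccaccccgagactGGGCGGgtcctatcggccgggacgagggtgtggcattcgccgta
Anxa7: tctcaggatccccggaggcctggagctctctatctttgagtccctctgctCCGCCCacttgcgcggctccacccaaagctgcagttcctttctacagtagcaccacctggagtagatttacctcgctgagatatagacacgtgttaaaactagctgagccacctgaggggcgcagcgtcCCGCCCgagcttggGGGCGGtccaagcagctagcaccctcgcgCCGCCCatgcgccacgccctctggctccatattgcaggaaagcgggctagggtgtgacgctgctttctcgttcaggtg
Anxa2: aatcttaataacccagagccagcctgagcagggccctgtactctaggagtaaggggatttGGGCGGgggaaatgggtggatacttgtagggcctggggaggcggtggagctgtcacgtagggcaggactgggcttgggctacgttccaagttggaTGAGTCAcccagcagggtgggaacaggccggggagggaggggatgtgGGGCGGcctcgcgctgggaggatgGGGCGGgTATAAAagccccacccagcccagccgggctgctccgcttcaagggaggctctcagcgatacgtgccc
The Anxa8 window held 5 CpG dinucleotides and 57.3% G and C, and none of the 4 motifs. The Anxa5 window held 16 CpG dinucleotides and 60.3% G and C, also with no match. The Anxa4 window shown held 20 CpG dinucleotides, 65.3% G and C and 1 GC box at position 7 from the start. Its downstream window, not shown, held 3 CpG dinucleotides, 43% G and C and none of the motifs. The Anxa7 window shown held 19 CpG dinucleotides, 60.7% G and C and GC boxes at -200, -71, -57 and -28. Its upstream window, not shown, held 4 CpG dinucleotides, 44.7% G and C and 1 GC box at -8. The Anxa2 window held 13 CpG dinucleotides, 63.7% G and C, a TATA box at -17, GC boxes at -190, -48 and -24 and an AP-1 match at -95. Over 32851 promoters of this length the medians were 7 CpG dinucleotides and 52.7% G and C. Of those promoters, 13.6% held the TATA box, 37.4% the CCAAT box, 35.7% the GC box and 7.81% the AP-1 site. RefSeq windows were found for 7 of the 9 members, all but Anxa3 and Anxa6. A match describes letters in a window, and no match says only that these letters are not in it.

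An array's median signal lay between 104 and 112 intensity units. Between 16162 and 17332 probes an array (35.7 to 38.3%) had a detection p under 0.05, here called detected. Within a group the lowest correlation between arrays after normalization was 0.988. The first principal component held 36.3% of the variance. It ordered the groups by time, from -31.9 to -31.2 in vehicle up to 21.1 to 24.1 at 96 h. Component 2 held 10.5% and split the arrays by array label. It ran from 5.17 to 17.2 for vehicle and 96 h and from -17.2 to -5.32 for 32 h and 64 h. That split also parts the first and last times from the middle ones, so label and time cannot be told apart in it. Component 3 held 7.07% and set imatinib 32 h replicate 3 (-20.4) apart from 64 h replicate 3 (20.2). Leaving both out changed no call of a member's brightest probe unless said. Vehicle and 96 h share one array label, and 32 h and 64 h the other, so comparisons across the labels cannot be told apart from array. The series' design can be read as giving vehicle at each time, so the vehicle's time in culture is in doubt, and drug and time in culture cannot be told apart. Intensity is given on the log2 scale after normalization, and levels are compared between arrays for 1 probe, never between probes. A gene is represented by its brightest kept probe, and kept means detected on at least 3 of the 12 arrays. Of the 20 annexin probes 16 were kept, and the brightest probe of each of the 9 genes was detected on 12 of 12 arrays.

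Against vehicle, 5 of the 9 annexins passed an adjusted p of 0.05 at 96 h: Anxa8, Anxa5, Anxa4 and Anxa7 fell and Anxa6 rose. Of all 10211 genes, 7.37% were lower and 7.51% higher by the same rule. The median change of the 9 was -0.23 on the log2 scale, beside 0 over all genes. This is the comparison from which the family was chosen, so these counts and the values from it are a description and no test is drawn from them. The comparisons of 32 h and 64 h with vehicle and of 96 h with 64 h share arrays with it and are described in the same way. From 32 h to 64 h, which uses neither of its groups, the fit's tests are given.

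**Figure D1:**
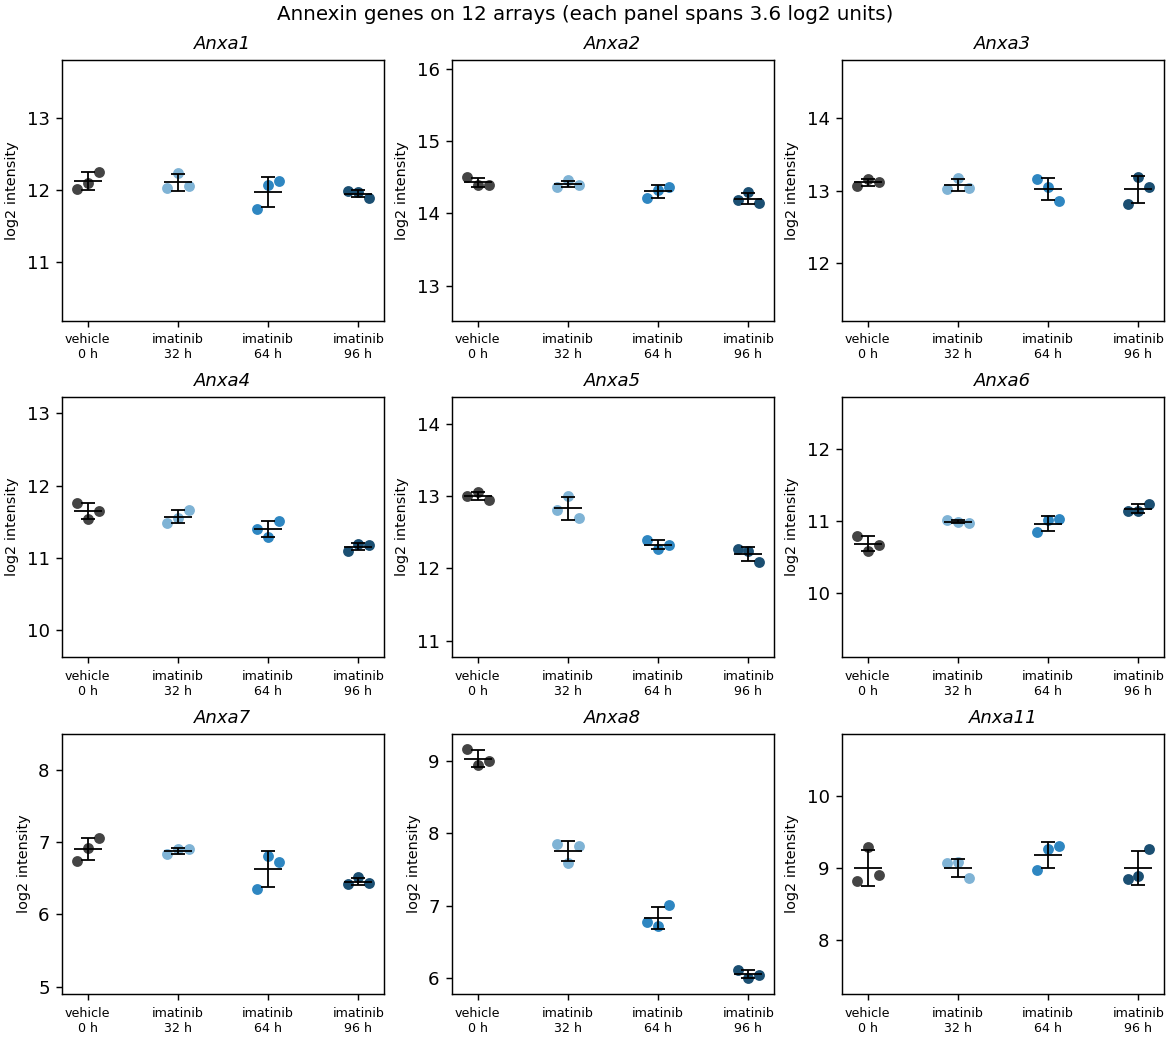
Normalized log2 intensity (vertical axis, the same span in each panel) of the brightest probe of each of the 9 annexins in the 4 groups (horizontal axis); each point is 1 array, the wide line is the group mean and the bars are 1 SD over 3 arrays. Anxa8 goes from 8.94 to 9.16 in vehicle down to 6.0 to 6.11 at 96 h with no overlap between groups, while Anxa3 and Anxa11 overlap throughout.

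Anxa8 had the largest change of the family. It encodes annexin A8, a phospholipid-binding protein first described as an anticoagulant and later placed on late endosomes in human endothelial cells. Its brightest probe (ILMN_2724558) read 9.16, 8.94 and 9.0 in the 3 vehicle arrays. It read 7.85, 7.59 and 7.82 at 32 h, 6.77, 6.72 and 7.01 at 64 h, and 6.11, 6.0 and 6.04 at 96 h. No 2 groups overlapped, and each later time lay below the one before. The means were 9.03 ± 0.11, 7.75 ± 0.14, 6.84 ± 0.16 and 6.05 ± 0.06 (SD, n = 3 each).

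The second Anxa8 probe (ILMN_2863332) followed the same order of group means. It read 8.87, 8.41 and 8.54 in vehicle, 7.76, 7.40 and 7.79 at 32 h, 6.40, 6.58 and 6.42 at 64 h, and 6.04, 5.23 and 6.04 at 96 h. One 96 h array, replicate 2, stood below the other two, and the groups still did not overlap. Both probes were detected on all 12 arrays.

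From vehicle to 96 h, Anxa8 was lower by -2.99 ± 0.12 (log2, SE), a 7.92-fold difference, and its second probe by -2.84 ± 0.20. Ranked from the largest decrease, Anxa8 was number 8 of 10211 genes. At 32 h it was already lower than vehicle by -1.28 ± 0.12 (2.43-fold) and its second probe by -0.96 ± 0.20. At 64 h it was lower by -2.20 ± 0.12 (4.59-fold) and its second probe by -2.14 ± 0.20. From 64 h to 96 h the difference was -0.79 ± 0.12, and the second probe's, -0.70 ± 0.20, did not pass. Without background correction the brightest probe differed by -1.89 from vehicle to 96 h and by -0.36 from 64 h to 96 h.

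Between 32 h and 64 h of imatinib, Anxa8 fell by 0.92 on the log2 scale (1.89-fold, SE 0.12), with an adjusted p of 0.00168 in limma. All 3 arrays at 64 h lay below all 3 at 32 h. The 95% interval of the change was -1.18 to -0.65. The second probe changed by -1.18 ± 0.20, with a limma adjusted p of 0.00832. Over all genes, 0.578% fell and 0.656% rose in this comparison, and Anxa8 was 1 of the 9 annexins to pass. Without background correction the change was -0.55 and still passed. In bulk RNA, fewer cells of a type and less RNA per cell cannot be told apart. Separate cultures are not stated in the labels, so each p reflects only how these arrays vary, which may be technical.

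**Figure D2:**
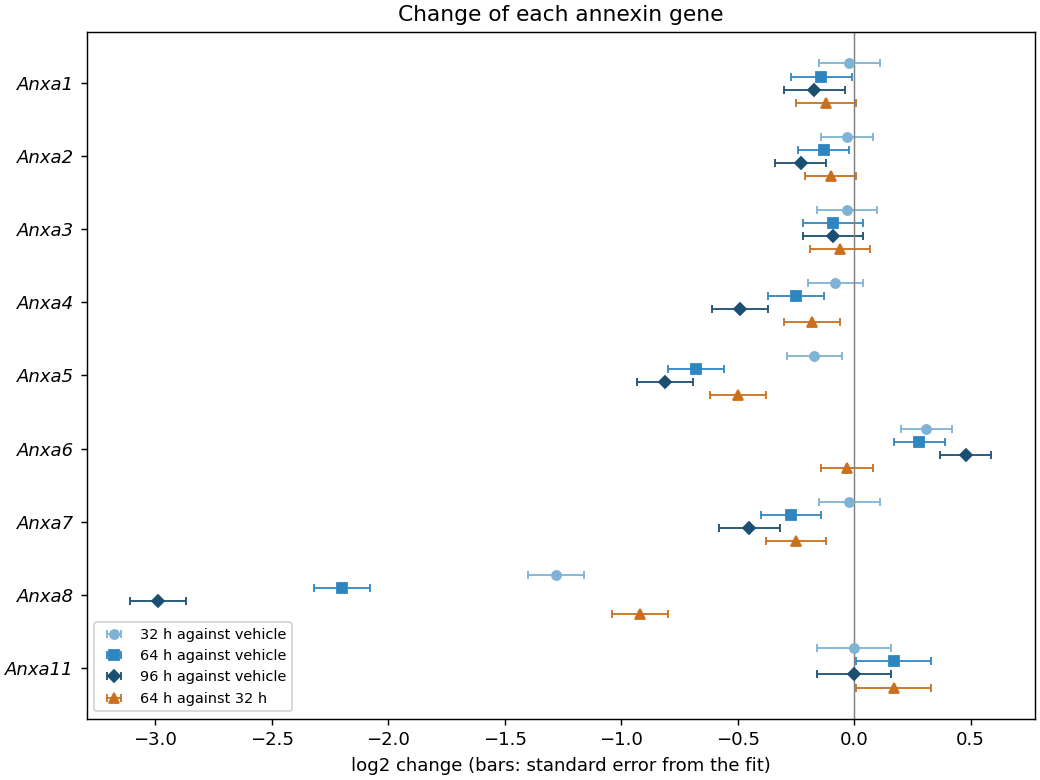
Log2 change (horizontal axis) of each annexin's brightest probe (rows) at 32, 64 and 96 h against vehicle (circles, squares and diamonds) and from 32 h to 64 h (triangles), with bars of 1 SE from the fit. Anxa8 lies farthest left in all 4 comparisons, from -2.99 at 96 h against vehicle to -0.92 from 32 h to 64 h, and Anxa6 lies right of 0 in all 3 against vehicle.

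Anxa5 was the next in size. It encodes annexin A5, the protein whose binding to exposed phosphatidylserine is used to stain dying cells. Its one probe (ILMN_2680142) read 13, 13.06 and 12.95 in vehicle and 12.80, 13 and 12.69 at 32 h. It read 12.39, 12.27 and 12.32 at 64 h and 12.26, 12.24 and 12.08 at 96 h. Vehicle and 32 h overlapped, and all arrays at 64 h and 96 h lay below both.

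At 96 h Anxa5 was lower than vehicle by -0.81 ± 0.12 (1.75-fold), and at 64 h by -0.68 ± 0.12 (1.60-fold). At 32 h the difference was -0.17 ± 0.12 and did not pass. Between 32 h and 64 h the change was -0.50 ± 0.12 (95% interval -0.75 to -0.25), with a limma adjusted p of 0.0602, so it did not pass although the 3 arrays of each time were apart. Under 6 of the other settings tried it passed.

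Anxa4, whose protein binds membranes of secretory epithelia and regulates ion conductance there, was lower at the last time. Its brightest probe (ILMN_2772410) read 11.76, 11.54 and 11.65 in vehicle, 11.49, 11.56 and 11.67 at 32 h, 11.40, 11.29 and 11.51 at 64 h and 11.10, 11.19 and 11.18 at 96 h. Neighbouring groups overlapped up to 64 h, and the 96 h arrays lay below all others. The difference at 96 h was -0.49 ± 0.12 (1.41-fold). Another kept probe (ILMN_2935012) had -0.66 ± 0.15 and passed too, with group means of 9.27, 9.21, 8.94 and 8.61 from vehicle to 96 h. The remaining Anxa4 probe was detected on no array. From 32 h to 64 h the changes of the kept probes were -0.18 ± 0.12 and -0.27 ± 0.15, with limma adjusted p of 0.601 and 0.539, and the arrays of the latter probe did not overlap.

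Anxa7, known as synexin, carries a long N-terminal tail that binds the calcium-binding proteins sorcin and ALG-2. The 1 kept probe (ILMN_2561575) read 6.74, 6.92 and 7.05 in vehicle, 6.83, 6.91 and 6.90 at 32 h, 6.35, 6.81 and 6.73 at 64 h and 6.42, 6.51 and 6.43 at 96 h. The 96 h arrays lay below the vehicle and 32 h arrays and overlapped those of 64 h. The difference at 96 h was -0.45 ± 0.13 (1.37-fold), and -0.23 without background correction, which still passed. Its call ended without vehicle replicate 2 (-0.44) or 3 (-0.38), without 96 h replicate 1 (-0.43), 2 (-0.48) or 3 (-0.44), and without replicate 3 of both 32 h and 64 h (-0.45). The other Anxa7 probes, one of them carrying the RefSeq transcript, were detected on no array, so this gene rests on 1 probe annotated to a cDNA clone. The change between 32 h and 64 h was -0.25 ± 0.13, with groups just apart and a limma adjusted p of 0.514, and -0.12 without background correction.

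Anxa6 was the member that rose. Its protein has a duplicated core and is found at the plasma membrane and endosomes, where it takes part in cholesterol handling. The brightest probe (ILMN_2878060) read 10.79, 10.59 and 10.67 in vehicle, 11.01, 10.99 and 10.97 at 32 h, 10.84, 11.01 and 11.03 at 64 h and 11.14, 11.13 and 11.24 at 96 h. Every imatinib array lay above every vehicle array, and the 32 h and 64 h arrays overlapped. The difference was 0.48 ± 0.11 at 96 h (1.40-fold), which passed. It was 0.31 ± 0.11 at 32 h and 0.28 ± 0.11 at 64 h, neither of which passed. Under 3 other settings both passed.

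Anxa6 has 2 other kept probes, both annotated to cDNA clones. At 96 h they differed from vehicle by 0.44 ± 0.15, which did not pass, and by 0.67 ± 0.18, which did. At 64 h both were higher by 0.62 ± 0.15 and 0.71 ± 0.18 and passed, unlike the brightest probe. The 3 probes changed between 32 h and 64 h by -0.03 ± 0.11, 0.05 ± 0.15 and 0.23 ± 0.18, and the first had a limma adjusted p of 0.948 with an interval of -0.27 to 0.21.

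**Figure D3:**
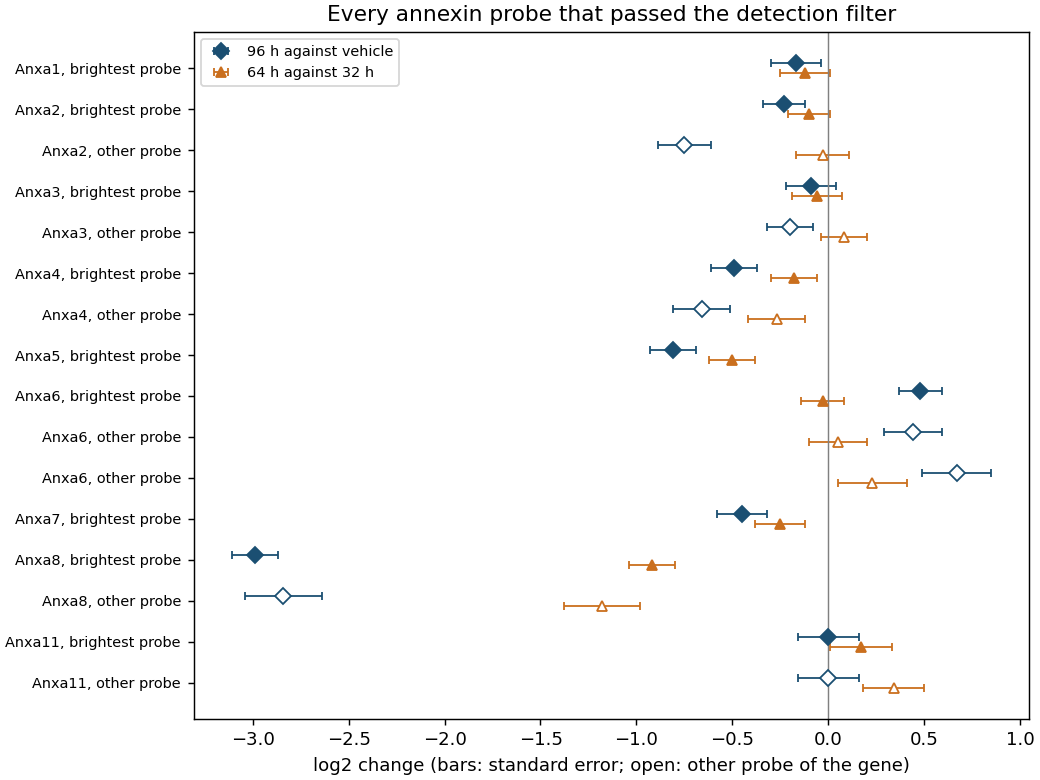
Log2 change (horizontal axis) of each of the 16 kept annexin probes (rows) at 96 h against vehicle (diamonds) and from 32 h to 64 h (triangles), with bars of 1 SE from the fit; filled symbols are the brightest probe of a gene and open symbols its other probes. Both Anxa8 probes lie far left of 0 (-2.99 and -2.84 at 96 h), and the Anxa2 probes lie apart at 96 h (-0.23 and -0.75).

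Anxa2 encodes the annexin that pairs with S100a10 and serves as a docking site for plasminogen and its activator at the cell surface. Its brightest probe (ILMN_2657175) read 14.50, 14.40 and 14.39 in vehicle, 14.37, 14.46 and 14.39 at 32 h, 14.21, 14.33 and 14.37 at 64 h and 14.18, 14.29 and 14.14 at 96 h. All 96 h arrays lay below the vehicle arrays by a small margin. The difference, -0.23 ± 0.11 with an interval of -0.46 to 0.01, did not pass.

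The second Anxa2 probe (ILMN_1233117), annotated to a cDNA clone, read 7.56, 7.26 and 7.27 in vehicle and 6.40, 6.75 and 6.69 at 96 h. Its difference, -0.75 ± 0.14, passed, so the 2 probes had the same sign and different sizes. Between the 32 h and 64 h groups they changed by -0.10 ± 0.11 and -0.03 ± 0.14, with limma adjusted p of 0.778 and 0.968.

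Anxa1, the glucocorticoid-induced annexin known for limiting inflammation, read 12.01, 12.10 and 12.25 in vehicle and 11.98, 11.97 and 11.89 at 96 h on its 1 probe. The difference of -0.17 ± 0.13 did not pass, with an interval of -0.45 to 0.10. It changed from 32 h to 64 h by -0.12 ± 0.13, with a limma adjusted p of 0.773 and an interval of -0.40 to 0.15.

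Anxa3, a membrane-binding annexin abundant in neutrophils, differed at 96 h by -0.09 ± 0.13 on the brightest probe and by -0.20 ± 0.12 on the second. Its brightest probe read 13.06, 13.16 and 13.12 in vehicle and 12.82, 13.19 and 13.05 at 96 h, with overlap. Between 32 h and 64 h the brightest probe changed by -0.06 ± 0.13, with a limma adjusted p of 0.908.

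Anxa11, whose long tail takes part in tethering RNA granules to lysosomes, read 8.82, 9.29 and 8.91 in vehicle and 8.85, 8.89 and 9.27 at 96 h. The difference was 0.00 ± 0.16 with an interval of -0.34 to 0.33. From 32 h to 64 h it changed by 0.17 ± 0.16, with a limma adjusted p of 0.731. Of its 2 dimmer probes, one was kept though detected on 2, 0, 2 and 1 of 3 arrays from vehicle to 96 h, and the other was detected on none.

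In the other comparisons fewer members passed. At 32 h against vehicle only Anxa8 of the 9 fell and none rose, while 2.08% of all genes fell and 2.09% rose. At 64 h Anxa8 and Anxa5 fell and none of the 9 rose by its brightest probe, beside 6.08% and 6.33% of all genes. From 64 h to 96 h Anxa8 alone fell, beside 0.137% of all genes lower and 0.118% higher. That call ended with only the 6 arrays compared, without any 1 of the 96 h arrays, without 64 h replicate 3, and without replicate 3 of both 32 h and 64 h. The median of the 9 changes was -0.03 at 32 h, -0.14 at 64 h, -0.12 from 32 h to 64 h and -0.13 from 64 h to 96 h, beside 0 over all genes each time.

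Among themselves the members' time courses were compared by the root mean square difference over 12 arrays of log2 values centred on each gene's mean. The closest were Anxa1 and Anxa2 at 0.10, neither of them called by its brightest probe in any comparison. This measure is not scaled to the size of change, so genes that change little lie close by it. Anxa8 lay 0.81 from Anxa5, its nearest member, and 1.28 from Anxa6, its farthest. The annexins not listed gave little signal. Anxa9 was detected on 2, 0, 1 and 2 of 3 arrays from vehicle to 96 h, Anxa13 on 1 array at 32 h, and none of the 3 Anxa10 probes was detected on any array.

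By the same measure the 5 genes nearest to Anxa8 were Trem2, Timp3, Adssl1, Tmem184a and Col18a1, at 0.19, 0.22, 0.25, 0.25 and 0.25, all closer than any annexin. Predicted and unnamed transcripts were left out of this search, as they were for the other members. Trem2 encodes a lipid-binding receptor best known in macrophages, and its group means ran from 9.31 in vehicle through 8.46 and 7.39 to 6.46 at 96 h. Timp3 encodes an inhibitor of metalloproteinases held in the matrix, and its means ran from 12.52 through 11.32 and 9.99 to 9.31. Adssl1 encodes a muscle-type adenylosuccinate synthase, and Col18a1 the basement membrane collagen that holds endostatin. Their differences at 96 h were -2.49 and -2.51, beside -2.41 for Tmem184a.

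The genes nearest to Anxa5 were Dlk1 (0.06), which encodes an inhibitor of adipocyte differentiation, and Serpinb1a (0.10), which encodes a protease inhibitor. Nearest to Anxa4 were Nfic and Zfp511, both at 0.07. Nearest to Anxa6 were Aldh4a1 (0.07), a proline-breakdown enzyme, and Esyt2 (0.08), a tether of the endoplasmic reticulum to the plasma membrane. Nearest to Anxa7 were Xpot and Pdgfa, both at 0.11. All members and neighbours share the same 12 arrays, so nearness is a description of these arrays.

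**Figure D4:**
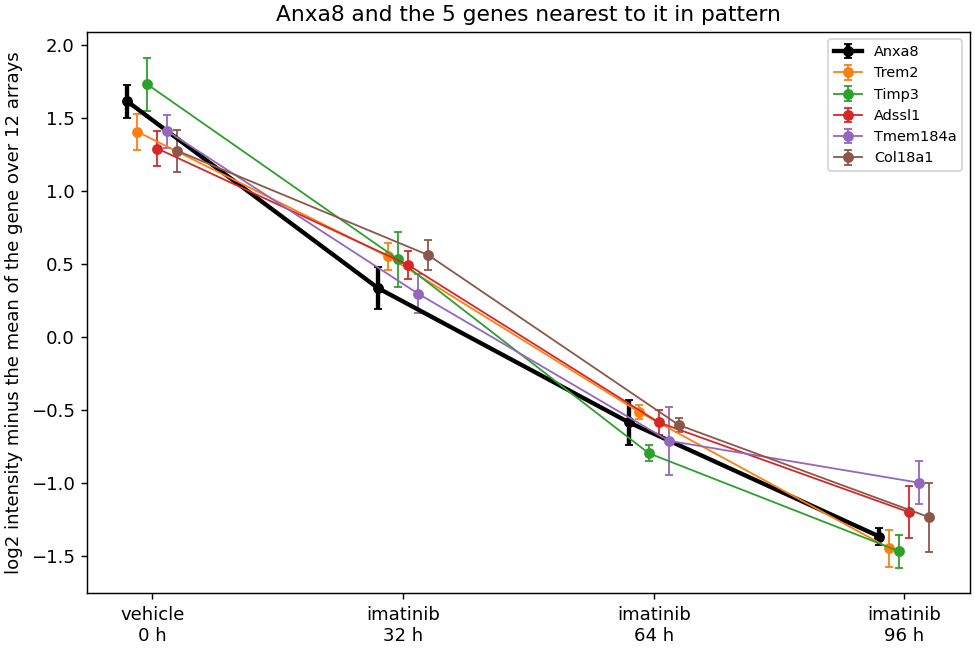
Group means of log2 intensity minus each gene's mean over 12 arrays (vertical axis) for Anxa8 and its 5 nearest genes in the 4 groups (horizontal axis), with bars of 1 SD over 3 arrays. All 6 genes are highest in vehicle and lowest at 96 h, and Trem2, at a root mean square difference of 0.19, is closest to Anxa8.

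The known partners of annexins were read from lists of genes, named where they passed with groups that did not overlap. Of 7 measured binding partners, 1 fell at 96 h against vehicle and none rose, beside 7.37% of all genes lower and 7.51% higher, with a list median of -0.15. It was Lgals3, which encodes the lectin galectin-3, at -1.46 ± 0.10, and it fell again from 32 h to 64 h by -0.58 ± 0.10 (limma adjusted p of 0.013). S100a10, the partner of annexin A2, differed at 96 h by -0.35 ± 0.14 and did not pass. S100a11, the partner of annexin A1, differed by 0.02 ± 0.13. Cd63, listed as a partner of annexin A8, differed by -0.12 ± 0.13 on its brightest probe and did not pass. Its 2 other probes had the same sign, and 1 of them passed.

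In the S100 family of calcium-binding proteins, 2 of 11 measured genes fell and 1 rose at 96 h, beside 7.37% of all genes lower and 7.51% higher, with a median of -0.34. S100a1 was lower by -1.32 ± 0.13 and S100a13, which takes part in the export of FGF1, by -1.18 ± 0.12. From 32 h to 64 h S100a1 changed by -0.74 ± 0.13 (limma adjusted p of 0.0116) and was the 1 member of its list that passed. Among all genes 0.578% were lower and 0.656% higher in that comparison. S100a8, a subunit of calprotectin, was higher by 0.69 ± 0.18, with low means of 4.57 in vehicle and 5.25 at 96 h. It was detected on no vehicle array and on all 3 at 96 h. With vehicle raised to the lowest detected level, the means differed 1.35-fold, a value that leaves out the spread between arrays.

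Of 5 measured genes of plasmin assembly at the cell surface, 3 fell at 96 h and none rose, beside 7.37% of all genes lower and 7.51% higher, with a median of -0.94. They were Plat (-1.54 ± 0.18, detected on 2 of 3 arrays at 96 h) and Plau (-1.27 ± 0.17), which encode the tissue and urokinase plasminogen activators, and Plaur (-0.94 ± 0.15), the urokinase receptor. From 32 h to 64 h none of the 5 passed, beside 0.578% of all genes lower and 0.656% higher. Their median then was -0.45.

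Of 14 measured genes of membrane repair and caveolae, 3 fell and none rose at 96 h, beside 7.37% of all genes lower and 7.51% higher, with a median of -0.23. Dysf, the repair protein dysferlin, differed by -0.67 ± 0.11, Capn2, a calcium-activated protease, by -0.73 ± 0.14 and Ahnak, a large scaffold that binds annexin A2 with S100a10, by -0.38 ± 0.12. For Capn2, 3 of 4 other probes had the same sign. The 11 measured ESCRT genes, of a second repair system, gave no call at 96 h or from 32 h to 64 h, with medians of 0.08 and -0.03. From 32 h to 64 h, 0.578% of all genes were lower and 0.656% higher.

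Among 5 measured flippases and scramblases, which set how phosphatidylserine is spread across the membrane, 2 rose at 96 h and none fell, beside 7.37% of all genes lower and 7.51% higher, with a median of 0.32. Plscr1 and Plscr4, of the phospholipid scramblase family, were higher by 1.05 ± 0.14 and 1.45 ± 0.12. Later, from 32 h to 64 h, Plscr1 changed by -0.08 ± 0.14 and Plscr4 by 0.52 ± 0.12, and neither passed. The 3 measured genes of annexin A1 signalling and eicosanoids gave no call in either comparison, with medians of 0.07 at 96 h and 0.11 from 32 h to 64 h. Over all genes the median was 0 in both, and from 32 h to 64 h 0.578% were lower and 0.656% higher.

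**Figure D5:**
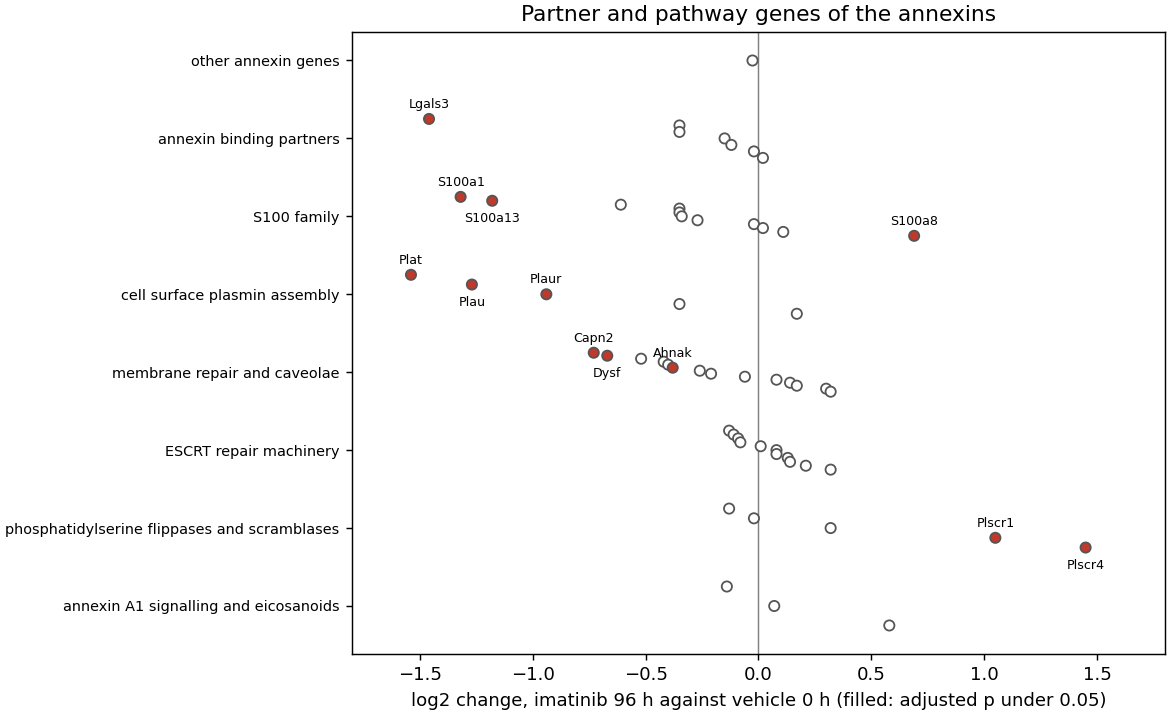
Log2 change from vehicle to imatinib 96 h (horizontal axis) of each measured gene in the lists of annexin partners and pathways (rows); each point is 1 gene and filled points have an adjusted p under 0.05. Lgals3 (-1.46) and the plasminogen activators Plat and Plau lie to the left, and Plscr1 (1.05) and Plscr4 (1.45) to the right.

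Markers were read beside these values. Of 10 stromal markers with a probe, 7 were detected on all 12 arrays: Cd44, Pdgfra, Pdgfrb, Vcam1, Itgb1, Col1a1 and Col1a2. Thy1 and Nt5e were each detected on 1 array, and Eng on 9. Of the 8 stromal markers that passed the detection filter, Cd44, Eng and Itgb1 were called at 96 h against vehicle, 1 of them higher and 2 lower. Among all genes 7.37% were lower and 7.51% higher. From 32 h to 64 h none of the 8 was called, beside 0.578% of all genes lower and 0.656% higher. The summed stromal intensity was 9610 to 10100 in vehicle and 9720 to 10300 at 96 h. The haematopoietic markers Ptprc and Itgam, the endothelial Tek and Emcn and the epithelial Epcam and Krt5 were detected on no array. The haematopoietic Cd3e was detected on 9 arrays and Adgre1 on 3, the endothelial Pecam1 and Kdr on 3 and Cdh5 on 1, and the epithelial Krt8 on 12, Cdh1 on 6 and Krt18 on 1, by the probe detected most often. Only 2 markers of each of these 3 lists passed the detection filter and were tested. None of them was called at 96 h against vehicle, beside 7.37% of all genes lower and 7.51% higher. None was called from 32 h to 64 h either, beside 0.578% of all genes lower and 0.656% higher. The summed intensities of these 3 lists include the probes detected on no array. The epithelial sum was 122 to 134 in vehicle and 132 to 140 at 96 h. The haematopoietic sum was 90.6 to 103 and 96.8 to 113, and the endothelial sum 115 to 122 and 112 to 129. Of 4 adipocyte markers with a probe, Adipoq was detected on all 12 arrays and rose, while Fabp4, Plin1 and Cidec were each detected on at most 2. The summed adipocyte intensity went from between 289 and 308 in vehicle to between 810 and 850 at 32 h, between 1510 and 1780 at 64 h and between 1900 and 2020 at 96 h. Adipoq alone of this list passed the detection filter. The adipocyte sum was higher and Anxa8 lower at each later time, while Anxa5 at 32 h differed from vehicle by -0.17 ± 0.12 and did not pass. The part of that sum, like that of the called stromal markers, in the values of Anxa8 and Anxa5 was not tested.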

How the data were processed

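OP9 RNA was read on 12 arrays, 3 a group. The deposited non-normalized table holds, per the file headers, the intensity of each probe with background and a detection p-value. The authors also deposited normalized intensity values, with limma named in the submitters' processing notes and no version. On the log2 scale the largest gap to the values computed here was 0.0193.

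The tools were limma 3.58.1 and the data.table package (version 1.17.8) in R 4.3.3. The neqc function corrected the background (offset 16) and normalized by quantiles. Of 45281 probes, 34885 name 1 gene, 18 several and 10378 none. Probes with detection p under 0.05 on at least 3 arrays were kept (18897, for 10211 genes). A gene's brightest kept probe represents it. Group means were fitted to all 12 arrays (8 residual degrees of freedom), with Benjamini-Hochberg adjustment over kept probes and a threshold of 0.05. A fold against an undetected group raises its arrays to the lowest level detected on each where they lie below it, and has no standard error. The script was tested on simulated data. Figures used Python 3.11.15 and matplotlib 3.10.9.

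The members and lists were chosen with earlier results of these data known. Named were all members, up to 4 called genes a list by smallest p with groups apart, and the 5 genes nearest to Anxa8 and 2 nearest to other called members. The nearest genes leave out predicted and unnamed transcripts. Same-numbered samples did not deviate together over all kept probes (18 pairs, r -0.0218 to 0.0549), and the main fit used no pairing. Such a correlation cannot exclude a pairing whose effect is small or touches few genes. Alternatives included median scaling, no background correction, normalizing each array label alone, the deposited values, the 6 compared arrays only, other filters, offset 50, trended and robust variances, the replicate block, the mean of a gene's probes, each array left out, array weights and replicate 3 of 32 h and 64 h left out together.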

Additional observations from a re-analysis of the deposited data

How the results depend on the processing

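Over 25 alternatives, 1098 values of single annexins were set beside the main fit. Of them, 1068 changed neither their call nor, beyond the spread between arrays, their sign. A call was lost by 12 and gained by 16, and 0 called values reversed. The other 2 were uncalled values of Anxa6 whose sign changed by more than the spread between arrays, with the mean of a gene's kept probes; smaller uncalled values, as of Anxa3 and Anxa11 at 96 h, crossed 0 within that spread. Anxa8 from 32 h to 64 h kept its call in all 25, at -1.05 to -0.55 with adjusted p from 1.36e-05 to 0.0199. The count of called annexins from 32 h to 64 h went from 1 to 2, with Anxa5 added, under no background correction, no filter, the strict filter (each array of some group detected at p under 0.01), trended and robust variances, offset 50 and the mean of a gene's kept probes. The adjusted p of Anxa5 there ran from 0.000118 to 0.194. At 32 h against vehicle the count went from 1 to 2, with Anxa6 added, under no background correction, trended and robust variances and the mean of probes. At 64 h against vehicle it went from 2 to 4 under no background correction, with Anxa4 and Anxa6 added, and Anxa6 also passed there under trended and robust variances (0.28) and the mean of probes (0.54). From 64 h to 96 h it went from 1 to 0 with only the 6 arrays compared and with replicate 3 of both 32 h and 64 h left out, and ranged from 0 to 1 when each array was left out. At 96 h against vehicle, Anxa2 gained a call under 3 settings (-0.49 to -0.19 over all 25). With the replicate block, Anxa8 changed by -0.92 from 32 h to 64 h (adjusted p of 0.00366 in limma) and Anxa5 had 0.0798; the block changed no count. Array weights and leaving out that pair of arrays were chosen after seeing the data. Each array label normalized on its own was run only for comparisons within a label. The cause of these shifts was not tested. Where arrays were left out, normalization and the detection filter were also run again on the rest. Dim probes such as the second Anxa11 probe are limited by signal over background.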

Other observations

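The annotated neighbours of Anxa8 on chromosome 14 were looked at after the values were seen. Of the 2 nearest genes on each side in RefSeq order, Antxrl, Npy4r and Gprin2 have a probe and A630023A22Rik has none. None of these 3 passed the detection filter, so no change of theirs is given.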
